A study of Mus musculus with 11 samples.

Results

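The 5 genes described here, Grik1 to Grik5, encode the subunits of the kainate receptor and were taken by gene symbol. All 5 were found in both count tables, which held 24391 and 24015 genes. The tables gave RNA-seq counts from hippocampus of 11 C57BL/6N mice at postnatal day (P) 32, an age taken from the study's methods because the labels say only adult. The mice came from 1 line in which Cas9 removed a conserved non-coding interval of Scn1a, the 1b regulatory region, from 1 allele in 1b+/- mice and from both alleles in 1b-/- mice. The heterozygous round compared 4 1b+/- mice, 3 males and 1 female, with 3 male WT mice, and the homozygous round compared 2 1b-/- mice, 1 male and 1 female, with 2 female WT mice. The rounds were sequenced separately, with paired-end and single-end reads respectively, so that genotype and round cannot be told apart when a group of one round is set beside a group of the other. Tissue came from 1 hemisphere per mouse, and the 1b-/- mice were those alive at P32.

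Kainate receptors are glutamate-gated cation channels, each a tetramer of subunits. The products of Grik1, Grik2 and Grik3 (GluK1 to GluK3) can form channels without other members, whereas those of Grik4 and Grik5 (GluK4 and GluK5) bind kainate with higher affinity and form channels only together with a member of the first class. In hippocampus the receptors are best known at the synapse of the mossy fibres, the axons of dentate granule cells, onto CA3 pyramidal cells, where they act on both sides of the synapse, and kainate itself evokes seizures there. GluK1 is known in hippocampal interneurons, GluK2 in principal cells, GluK4 chiefly in CA3 and GluK5 broadly.

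The stretch of each coding sequence that encodes the pore loop is printed because it shows how alike the 5 genes are where the channel is selective for ions. It was read from the GENCODE transcripts of mm9, 75 bases in the coding direction, and the capitals mark the glutamine codon of the Q/R site. In Grik1 and Grik2 this codon is known to be recoded to arginine by RNA editing, which counts per gene do not show.
Grik1: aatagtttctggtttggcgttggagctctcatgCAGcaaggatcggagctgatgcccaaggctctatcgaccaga
Grik2: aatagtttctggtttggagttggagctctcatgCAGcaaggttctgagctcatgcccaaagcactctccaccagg
Grik3: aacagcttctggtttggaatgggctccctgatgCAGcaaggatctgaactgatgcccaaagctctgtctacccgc
Grik4: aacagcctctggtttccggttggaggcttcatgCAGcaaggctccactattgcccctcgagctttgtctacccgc
Grik5: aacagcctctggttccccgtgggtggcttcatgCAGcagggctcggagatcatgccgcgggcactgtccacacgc

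The codon was the same, CAG, in all 5 genes. Between Grik1 and Grik2, 88% of the 75 bases were the same, and between Grik4 and Grik5 74.7%, while Grik1 and Grik4 shared 62.7%. In Grik1, Grik2 and Grik3 an intron divided the stretch after base 40, and in Grik4 and Grik5 it lay within 1 exon. On mm9 the stretches lay at chr16:87936326-87940822 (minus strand, Grik1), chr10:48960568-48964170 (minus, Grik2), chr4:125368418-125371240 (plus, Grik3), chr9:42355667-42355741 (minus, Grik4) and chr7:25807477-25807551 (minus, Grik5). The longest run of identical bases between transcripts of any 2 members was 38, between Grik3 and Grik5, which is shorter than the reads of either round. No exon of another annotated gene overlapped the exons of a member.

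The genes were annotated on mm9 at chr16:87896441-88289947 (Grik1, ENSMUSG00000022935.7), chr10:48819266-49508572 (Grik2, ENSMUSG00000056073.7), chr4:125167944-125391417 (Grik3, ENSMUSG00000001985.8), chr9:42326218-42752576 (Grik4, ENSMUSG00000032017.7) and chr7:25794872-25857388 (Grik5, ENSMUSG00000003378.8). Their merged exons ran from 3332 bases in Grik1 to 8979 bases in Grik3.

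Library totals ran from 20667122 to 36145161 counts, and each member had between 325 counts (Grik1 in WT replicate 1 of the homozygous round) and 13151 counts (Grik5 in 1b-/- replicate 2) per library. Levels are given as CPM, a gene's count relative to the size of its library, scaled within a round by TMM factors, which correct for differences in composition between libraries. Scn1a, the gene that carries the deletion, was measured at 91.2, 83.4, 96.7 and 119 CPM in the 1b+/- libraries against 171, 113 and 123 CPM in their WT libraries, and at 26.3 and 16.7 CPM in the 1b-/- libraries against 134 and 173 CPM in theirs. Its levels followed the labels in the homozygous round, and in the heterozygous round 1b+/- replicate 4 lay between the WT libraries. The common biological coefficient of variation that edgeR estimated was 9.13% for the heterozygous round, against 22.9% for the homozygous one.

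Both WT libraries of the homozygous round stood apart from all others in markers of brain regions. Striatal markers (9 genes in both tables, none at 0) summed to 3613 and 8639 CPM there, against 213 to 423 CPM in the 9 other libraries. Penk, their most abundant gene, had 880 and 2073 CPM there against 36.4 and 69.1 CPM in the 1b-/- libraries. Cholinergic markers of the basal forebrain (5 genes) summed to 43.2 and 101 CPM in these WT libraries and to between 1.76 and 11.6 CPM elsewhere. Markers of hippocampus had counts in every library, but most were lower, and some near 0, in the WT libraries of the homozygous round. CA3 markers (5 genes in both tables) summed to 55.7 and 84.6 CPM there and to 205 and 267 CPM in the 1b-/- libraries, CA1 markers (5 genes) to 330.4 and 331 against 641 and 912 CPM, and dentate granule cell markers (7 genes) to 113 and 148 against 249.98 and 307 CPM. Pdzd2, the most abundant gene of the dentate list, made up most of the WT sums of that list. It went the other way, with 83.1 and 122 CPM in WT against 47.2 and 71.1 CPM in 1b-/- libraries. The other 6 dentate genes had positive log2 fold changes in 1b-/- mice. Scaled within the round, C1ql2 had 1.85 and 1.78 CPM in WT against 71.7 and 79.0 CPM in 1b-/- libraries. Lct ranged from 0.27 to 2.01 against 29.1 to 51.5 CPM, and the CA3 gene Iyd from 0.32 to 0.47 against 5.45 to 8.09 CPM. The homozygous comparison called 9 of 10 striatal and 4 of 5 cholinergic markers lower in 1b-/- mice and called higher the dentate genes C1ql2, Lct and Prox1, the CA3 genes Cpne4 and Iyd and the CA1 gene Fibcd1. It also called Gad2 lower and Cck higher among 9 interneuron markers and Rorb lower among 6 neocortical markers. It called none of the thalamic, astrocyte, oligodendrocyte, oligodendrocyte precursor, microglia, choroid plexus and endothelial markers. All 5 oligodendrocyte, 5 microglia and 4 endothelial markers had negative log2 fold changes, and all 5 choroid plexus markers positive ones. Choroid plexus markers differed widely within a genotype. They summed to 58.8 and 13195 CPM in the 1b-/- libraries, to 51.5 and 3352 CPM in their WT libraries and to between 59.7 and 2690 CPM in 1b+/- libraries. The part of these markers in the results on kainate receptor genes was not tested, and in bulk tissue fewer cells of a type and less RNA per cell cannot be told apart.

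**Figure D1:**
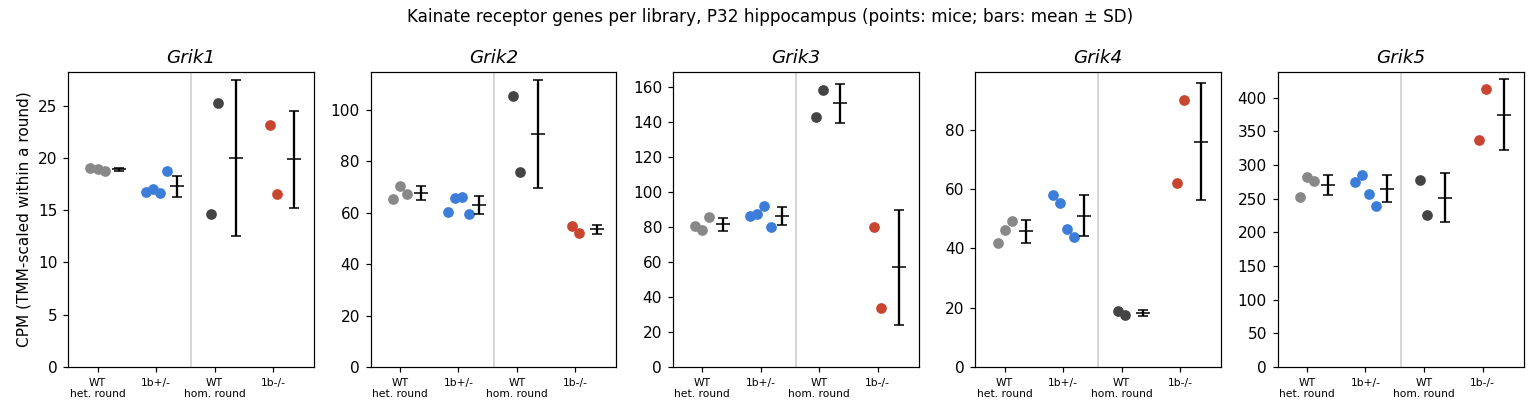
CPM of Grik1 to Grik5 on a linear axis from 0 in each panel, with 1 point per mouse and bars for mean ± SD, for the heterozygous round (3 WT and 4 1b+/- mice) and the homozygous round (2 WT and 2 1b-/- mice). Grik4 lay at 17.5 and 19.0 CPM in WT and at 62.2 and 89.8 CPM in 1b-/- mice, whereas the groups of the heterozygous round lay close together for every gene.

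In 1b-/- mice the 2 genes of the high-affinity class, Grik4 and Grik5, lay above WT in every library, and Grik2 and Grik3 lay below WT in every library. With 2 mice per group, 59.7% of all genes tested were likewise without overlap between the genotypes. Of the 5 genes, only Grik4 passed the test, with edgeR's quasi-likelihood test and Benjamini-Hochberg adjustment over 14838 genes. That is 1 of 5 members, beside 3.58% of all genes tested, and beside 2.06% of all genes called higher in 1b-/- mice.

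Grik4 encodes GluK4, the high-affinity subunit known chiefly from CA3. It was measured at 62.2 and 89.8 CPM in the 1b-/- libraries and at 19.0 and 17.5 CPM in the WT libraries. The groups were far apart, and the lower 1b-/- library stood above both WT libraries. The log2 fold change was 2.06 ± 0.21 (SE), a 4.17-fold higher level, with adjusted p = 0.0223 by edgeR's quasi-likelihood test. The call rested on both WT libraries: the adjusted p was 0.101 without WT replicate 1 and 0.0765 without WT replicate 2, at log2 fold changes of 2.13 and 2.002, and without WT replicate 1 none of the genes tested was called, although 3861 had an unadjusted p under 0.05. A fit that leaves out 1 of these 4 libraries has an arm of 1 mouse, which is assumed to vary like the pair in the other arm. With 2 mice per group an exact permutation test cannot go below p = 0.333, which is the value it gave (two-sided). The WT level of this comparison was also low beside the other round: scaled over all 11 libraries, Grik4 averaged 17.9 ± 1.0 CPM (SD, n = 2) in its own WT mice, 46.9 ± 3.9 CPM (n = 3) in those of the heterozygous round, 52.4 ± 7.0 CPM (n = 4) in 1b+/- mice and 74.2 ± 18.4 CPM (n = 2) in 1b-/- mice. Both WT libraries in which Grik4 was low were those with lower CA3 markers and high striatal markers.

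Grik5 encodes GluK5, the broadly expressed high-affinity subunit. It had 337 and 412 CPM in the 1b-/- libraries and 277 and 226 CPM in the WT libraries, so the groups did not overlap. Its log2 fold change of 0.58 ± 0.17 (SE) did not pass the test (adjusted p = 0.123, edgeR's quasi-likelihood test).

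Grik2 encodes GluK2, the channel-forming subunit known in principal cells. It had 54.8 and 52.2 CPM in the 1b-/- libraries, which were close to each other, and 105.6 and 75.7 CPM in the WT libraries. Every WT library was above both 1b-/- libraries, but the WT libraries differed from each other by more than the lower one did from the 1b-/- libraries. The log2 fold change was -0.76 ± 0.19 (SE), with adjusted p = 0.0877 by edgeR's quasi-likelihood test.

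Grik3 encodes GluK3, a channel-forming subunit of low agonist sensitivity. It had 80.2 and 33.8 CPM in the 1b-/- libraries and 143 and 159 CPM in the WT libraries. The WT libraries were close to each other, and the 1b-/- libraries, 1 from the male and 1 from the female, were not. These 1b-/- libraries also differed in region markers, with choroid plexus sums of 58.8 and 13195 CPM and CA1 sums of 641 and 912 CPM. With 1 mouse of each sex, sex and tissue content cannot be told apart. The log2 fold change was -1.40 ± 0.40 (SE), with adjusted p = 0.112 by edgeR's quasi-likelihood test. Without the male, 1b-/- replicate 1, it was -2.16 with adjusted p = 0.00493, a fit of 1 library against 2 in which only the WT pair gives the spread of the gene.

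Grik1 encodes GluK1, the subunit known in interneurons. It had 23.2 and 16.6 CPM in the 1b-/- libraries and 14.7 and 25.3 CPM in the WT libraries, and the groups overlapped. The log2 fold change was -0.0073 ± 0.32 (SE), with adjusted p = 0.990 by edgeR's quasi-likelihood test.

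Across the 5 members, then, 4 had groups that did not overlap in the homozygous round, where 59.7% of all genes tested did not overlap either. The count of members called depended on the test. DESeq2 called Grik2, Grik3, Grik4 and Grik5, where it called 14.4% of all genes, and edgeR's likelihood ratio test called Grik2, Grik3 and Grik4, where it called 12.3%. The fit over all 11 libraries, whose estimate of the spread is shared with the heterozygous round, called the same 4 genes as DESeq2, where it called 37.2% of all genes. The median log2 fold change of the members was -0.0073, beside -0.0013 over all genes, with values on both sides of 0.

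In 1b+/- mice no kainate receptor gene passed the test, and the largest of the 5 log2 fold changes was 0.16. Grik1 had 16.7, 17.1, 16.7 and 18.8 CPM in the 1b+/- libraries and 19.0, 18.9 and 18.8 CPM in the WT libraries. The groups did not overlap, but the highest 1b+/- library, from the only female, lay next to the lowest WT library. The log2 fold change was -0.13 ± 0.062 (SE), with adjusted p = 0.477 by edgeR's quasi-likelihood test, and the exact permutation test gave p = 0.0571 (two-sided, n = 4 and 3, smallest possible p = 0.0286). Grik1 was the only member whose groups did not overlap in this round, where 10.9% of all genes tested did not.

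Grik4, the gene called in 1b-/- mice, had 58.1, 55.3, 46.6 and 43.9 CPM in the 1b+/- libraries and 41.7, 46.1 and 49.3 CPM in the WT libraries. The groups overlapped, with 2 of the 1b+/- libraries above every WT library and 2 within their range. The log2 fold change was 0.16 ± 0.10 (SE), with adjusted p = 0.594 by edgeR's quasi-likelihood test.

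Grik2 had 60.5, 65.6, 66.1 and 59.5 CPM in the 1b+/- libraries and 65.3, 70.5 and 67.2 CPM in the WT libraries, with a log2 fold change of -0.10 ± 0.053 (SE). Grik3 had 86.2, 87.6, 92.2 and 79.8 CPM in the 1b+/- libraries and 80.6, 78.5 and 85.8 CPM in the WT libraries, with a log2 fold change of 0.083 ± 0.056 (SE). Grik5 had 275, 285, 258 and 239.9 CPM in the 1b+/- libraries and 253, 282 and 277 CPM in the WT libraries, with a log2 fold change of -0.031 ± 0.064 (SE). The groups of all 3 genes overlapped, and their adjusted p-values by edgeR's quasi-likelihood test ranged from 0.493 to 0.892. This test called 0% of all 14630 genes in the round, with 1649 genes at an unadjusted p under 0.05, while edgeR's likelihood ratio test called 191 genes and DESeq2 245, none of them a member.

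**Figure D2:**
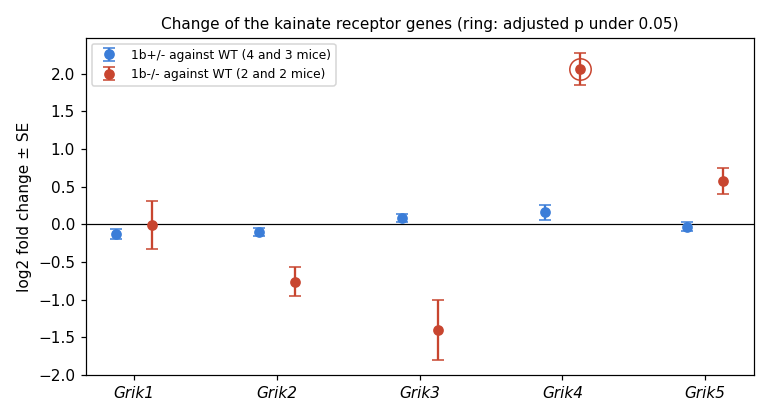
Log2 fold change ± SE of each kainate receptor gene from edgeR's quasi-likelihood fit, for 4 1b+/- against 3 WT mice and 2 1b-/- against 2 WT mice, with a ring where the adjusted p was under 0.05. The 5 values of the heterozygous round lay between -0.13 and 0.16, and those of the homozygous round between -1.40 and 2.06, with the ring on Grik4 at 2.06.

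Whether the change in 1b-/- mice differed from that in 1b+/- mice was tested as a contrast of both effects in a fit over all 11 libraries. That fit estimated the spread of each gene over both rounds together. The common biological coefficient of variation was 9.13% for the heterozygous and 22.9% for the homozygous round. The difference, 1b-/- minus 1b+/- on the log2 scale, was 1.89 for Grik4 (adjusted p = 4.1e-04), 0.60 for Grik5 (0.0171), -0.66 for Grik2 (0.0127) and -1.49 for Grik3 (0.0125), by edgeR's quasi-likelihood test. For Grik1 it was 0.12 (adjusted p = 0.788). These 4 of 5 members stand beside 27.3% of all genes called in this contrast. Of the 4, only Grik4 was also called in the homozygous comparison on its own. The Grik5 call was lost without WT replicate 2 of the homozygous round (adjusted p = 0.0544) and without 1b-/- replicate 2 (0.0635).

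The slope per deleted allele, with round as a term, was 0.75 ± 0.14 (SE) for Grik4 (adjusted p = 0.0163) and -0.30 ± 0.065 for Grik2 (0.0218), both called by edgeR's quasi-likelihood test. Slopes of -0.47 for Grik3 (adjusted p = 0.0742), 0.19 for Grik5 (0.0850) and -0.044 for Grik1 (0.770) did not pass. That is 2 of 5 members, beside 11.1% of all genes. A slope takes the same step for each deleted allele, which was not tested. The log2 fold changes in 1b+/- and 1b-/- mice were 0.16 and 2.06 for Grik4, -0.10 and -0.76 for Grik2, and 0.083 and -1.40 for Grik3. This fit, too, estimated the spread of each gene over both rounds together. The Grik4 call was lost without either WT library of the homozygous round (adjusted p = 0.0659 and 0.0748), and the Grik2 call without either 1b-/- library (0.0753 and 0.0996).

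Levels of different genes were compared per kilobase of merged exon, with lengths from the GENCODE annotation. The study's methods do not say which gene annotation the counts were made with, so these lengths may not match it. Grik5 was the highest of the 5 genes in each of the 11 libraries, at 70.5 ± 4.0 CPM per kb (SD, n = 3) for WT mice sequenced in the heterozygous round and 69.0 ± 5.2 (n = 4) in 1b+/- mice. Per merged exon, in these WT mice Grik3 followed at 9.09 ± 0.42 CPM per kb, then Grik2 at 8.18 ± 0.32 and Grik4 at 7.72 ± 0.64, whose ranges overlapped, and Grik1 was lowest at 5.68 ± 0.038. In 1b+/- mice Grik4 (8.63 ± 1.15 CPM per kb) overlapped both Grik3 (9.63 ± 0.57) and Grik2 (7.61 ± 0.41), and Grik1 was again the lowest, at 5.19 ± 0.30.

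The order below Grik5 was not the same in the homozygous round. In its WT mice (n = 2) Grik3 stood at 16.8 ± 1.2 CPM per kb and Grik2 at 10.96 ± 2.55, and Grik4 was the lowest of the 5 in both libraries, at 3.08 ± 0.18. In 1b-/- mice (n = 2) Grik4 was second in both libraries by this length, at 12.8 ± 3.3 CPM per kb. Grik2 (6.47 ± 0.23), Grik3 (6.35 ± 3.66) and Grik1 (5.96 ± 1.39) followed with overlapping ranges.

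The place of Grik2 in this order depended on the length, because its longest transcript has 4800 bases against 8273 in its merged exons. Per kilobase of the longest transcript the mean of Grik2 came before that of Grik3 in the WT mice of both rounds, at 14.1 ± 0.55 against 9.10 ± 0.42 CPM per kb (n = 3) and at 18.9 ± 4.4 against 16.8 ± 1.2 (n = 2). The ranges of the second pair overlapped: in WT replicate 2 of the homozygous round Grik3 (17.7) came before Grik2 (15.8). In 1b-/- replicate 1 Grik2 (11.4 CPM per kb) then came before Grik4 (10.6), and in replicate 2 Grik4 (15.3) came before Grik2 (10.9). With either length Grik5 was the highest of the 5 genes in all 11 libraries, and Grik4 was the lowest in both WT libraries of the homozygous round.

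As a share of the 5 genes per kilobase, Grik4 made up 7.63% ± 0.35 (SD, n = 3) for WT mice sequenced in the heterozygous round, 8.60% ± 0.69 (n = 4) in 1b+/- mice, 9.86% ± 1.65 (n = 2) in 1b-/- mice and 3.01% ± 0.080 (n = 2) in the WT mice of the homozygous round. The WT mice of the homozygous round thus stood apart, and the ranges of the 1b+/- and 1b-/- mice overlapped. For Grik3 the shares in the same order were 9.001% ± 0.53, 9.64% ± 0.58, 5.06% ± 3.29 and 16.5% ± 2.6. Grik4 and Grik5 together, the high-affinity class, held 76.4%, 78.0% and 77.5% in the WT and 78.8%, 78.6%, 76.3% and 76.3% in the 1b+/- libraries of the heterozygous round, which overlapped. In the homozygous round they held 81.4% and 89.1% in the 1b-/- libraries and 69.5% and 64.2% in the WT libraries, which did not overlap. The shares were not tested, and they depend on the length: by the longest transcript, Grik2 held 12.3% in place of 7.62% in 1b+/- mice and 8.30% in place of 5.03% in 1b-/- mice, and Grik4 held 2.79% to 9.49% over the 4 groups.

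Grik3 per Grik4, both per kilobase, fell in a narrow range of 0.976 to 1.30 over the 7 libraries of the heterozygous round. In the homozygous round it was 4.96 and 5.98 for WT, far above that range, and 0.850 and 0.248 for 1b-/- mice, below it. All 5 genes summed to between 91.7 and 108.5 CPM per kb in 9 libraries, and to 121 and 138 CPM per kb in the 1b-/- libraries.

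**Figure D3:**
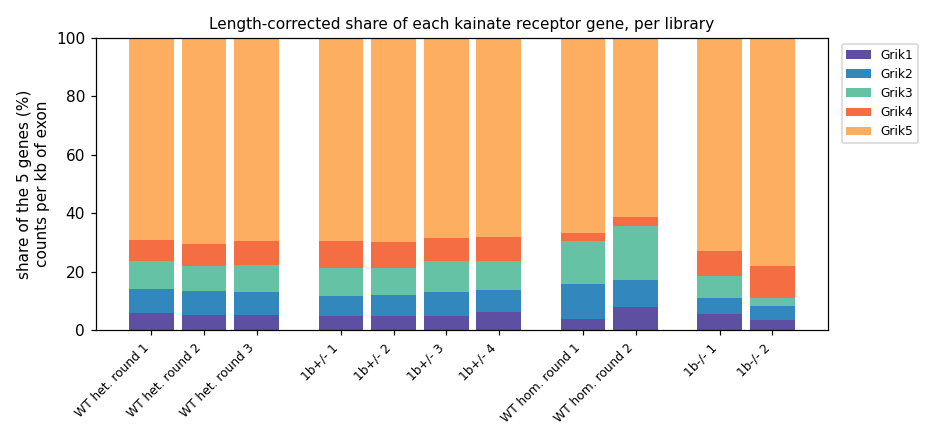
Share of each kainate receptor gene among the 5, in percent of counts per kilobase of merged exon, as 1 stacked bar per library that sums to 100%. Grik5 fills most of every bar, and the Grik4 segment is narrowest, near 3.01%, in the WT libraries of the homozygous round.

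Scaled over all 11 libraries, the ranges of the WT groups also lay apart for Grik2 and Grik3, and they overlapped for Grik1 and Grik5. For Grik3 the mean was 148 ± 11 CPM (SD, n = 2) for WT mice of the homozygous round and 83.9 ± 3.8 CPM (n = 3) in those of the heterozygous round, with 55.9 ± 32.7 CPM in 1b-/- mice (n = 2), whose higher library, at 79.1 CPM, lay just under the WT libraries of the heterozygous round. Grik2 stood at 89.2 ± 20.5 and 69.5 ± 2.7 CPM in these WT groups and at 52.3 ± 2.4 CPM in 1b-/- mice. Grik5 stood at 247 ± 35 and 278 ± 16 CPM in the WT groups and at 366 ± 48 CPM in 1b-/- mice, and Grik1 at 19.7 ± 7.4, 19.4 ± 0.13 and 19.5 ± 4.7 CPM. For Grik2, Grik3, Grik4 and Grik5 both 1b-/- libraries lay on the same side of the WT libraries of either round, for Grik3 only narrowly. The share of all genes that do so was not counted, and within the homozygous round alone 59.7% of all genes tested did not overlap. The levels in this paragraph were set side by side without a test, since round and group cannot be told apart.

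Of 23 genes whose products act on kainate receptors (auxiliary subunits, synaptic organisers, scaffolds, and enzymes of trafficking, modification and RNA editing), the homozygous comparison called C1ql2 higher and Neto2 lower, beside 3.58% of all genes called, and the heterozygous comparison called none, beside 0%. Their median log2 fold changes were -0.026 and -0.013, beside -0.0013 and 0.00073 over all genes. C1ql2 and C1ql3 encode proteins that mossy fibres secrete and that bind kainate receptors at the CA3 synapse. C1ql2 had 71.7 and 79.0 CPM in the 1b-/- libraries and 1.85 and 1.78 CPM in the WT libraries, and 33.8 to 47.1 CPM over the 7 libraries of the heterozygous round. Only the WT libraries of the homozygous round were thus near 0, and C1ql2 is also on the list of dentate granule cell markers. Its log2 fold change was 5.37 ± 0.15 (SE), with adjusted p = 0.00298 by edgeR's quasi-likelihood test and 0.0505 without WT replicate 1. C1ql3 had 59.8 and 51.7 CPM in 1b-/- and 8.81 and 29.2 CPM in WT libraries, a log2 fold change of 1.56 ± 0.53 that did not pass (adjusted p = 0.152).

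Neto1 and Neto2 encode the auxiliary subunits that slow the decay of kainate receptor currents. Neto2 had 35.7 and 26.1 CPM in the 1b-/- libraries and 113 and 100.5 CPM in the WT libraries, with no overlap, and its log2 fold change was -1.79 ± 0.19 (SE) with adjusted p = 0.0235 by edgeR's quasi-likelihood test. In the fits with 1 WT library it was -1.70 without WT replicate 1 (adjusted p = 0.101), where no gene at all was called, and -1.87 without WT replicate 2 (0.0617). In the heterozygous round Neto2 ranged from 72.8 to 78.0 CPM in 1b+/- and from 74.4 to 78.6 CPM in WT mice, which overlapped. Neto1 had 127 and 118 CPM in 1b-/- and 141 and 93.7 CPM in WT libraries, a log2 fold change of 0.065 ± 0.21 (adjusted p = 0.871). Adarb1, which encodes the enzyme known to edit the Q/R codon printed above, had 202 and 176 CPM in 1b-/- and 189 and 225 CPM in WT libraries, a log2 fold change of -0.13 ± 0.15 (adjusted p = 0.613).

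Among the 13 genes of the other ionotropic glutamate receptors, the homozygous comparison called Gria1, an AMPA receptor subunit, and Grin2a, an NMDA receptor subunit, both higher in 1b-/- mice, which is 2 of 13 beside 3.58% of all genes called. Gria1 had 882 and 1124 CPM in 1b-/- and 424 and 428 CPM in WT libraries (log2 fold change 1.24 ± 0.18, adjusted p = 0.0349), and Grin2a had 14.2 and 18.2 against 4.34 and 4.82 CPM (1.82 ± 0.21, adjusted p = 0.0266), by edgeR's quasi-likelihood test. Both calls were lost without either WT library (adjusted p from 0.0730 to 0.1204), and that of Gria1 also without 1b-/- replicate 2 (0.0563). Scaled over all 11 libraries, Gria1 averaged 980 CPM in 1b-/- mice, 419 CPM in their own controls and 961 CPM in WT mice sequenced in the other round, and Grin2a averaged 15.8, 4.51 and 51.8 CPM in the same groups. The WT mice of the homozygous round had the lowest level of both genes, and the 1b-/- mice lay near the other WT group for Gria1 and below it for Grin2a. The median log2 fold change of the 13 genes was 0.19. In the heterozygous round 12 of them were tested and none was called, with a median of -0.0083.

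**Figure D4:**
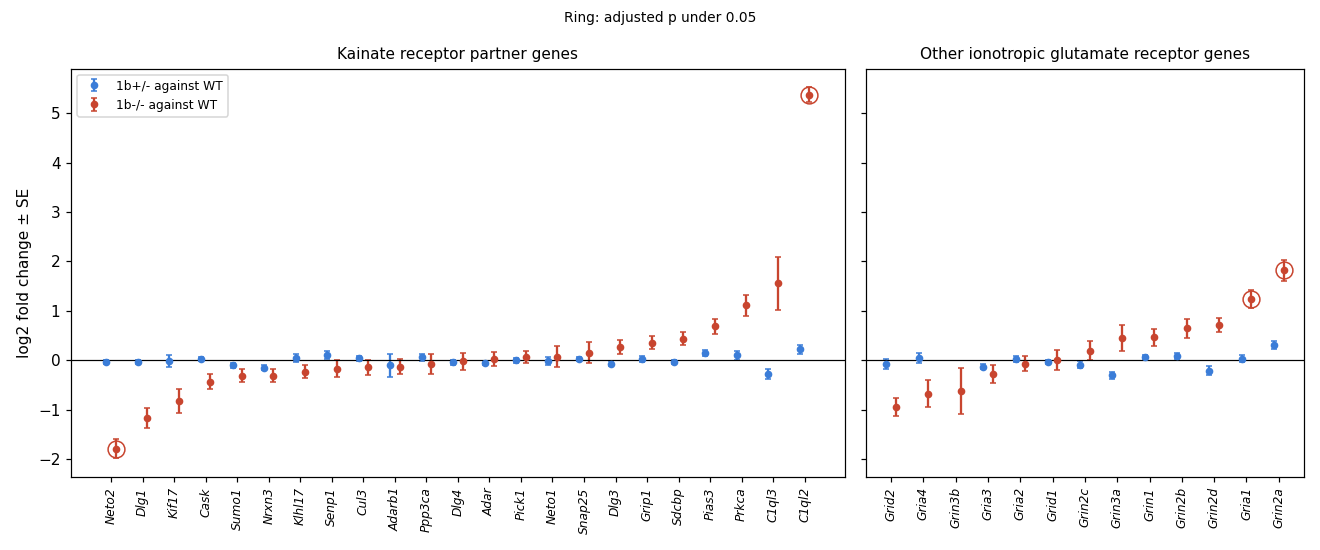
Log2 fold change ± SE of 23 kainate receptor partner genes (left) and 13 other ionotropic glutamate receptor genes (right), ordered by the value in 1b-/- mice, with a ring where the adjusted p of edgeR's quasi-likelihood test was under 0.05. In 1b-/- against WT mice C1ql2 (5.37), Neto2 (-1.79), Gria1 (1.24) and Grin2a (1.82) carry a ring, and in 1b+/- against WT mice no gene does.

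The genes whose pattern over the 11 libraries was most like that of each member were found among 12769 genes by Pearson correlation of log2 CPM, standardised within each round. The 2 highest were Tox3 (r = 0.977) and Rgs7 (0.933) for Grik1, Slc30a10 and Meis1 (both 0.983) for Grik2, and Llph (0.922) and Plk4 (0.919) for Grik3. For Grik4 they were Fig4 (0.988) and Cabp7 (0.965), and for Grik5 Rprml (0.958) and Slc35c2 (0.954). With 12769 genes ranked over 11 libraries, high values arise for every member, and the libraries share genotype and tissue content. Of these 10 genes the homozygous comparison called Cabp7, which encodes a calcium-binding protein, higher (log2 fold change 4.01 ± 0.29, adjusted p = 0.0191) and Meis1, which encodes a homeobox transcription factor, lower (-2.69 ± 0.37, adjusted p = 0.0329), by edgeR's quasi-likelihood test. Because the 10 genes were picked for their likeness to a member over these same libraries, their calls are not independent of the members' changes. Among the members themselves, Grik4 and Grik5 had the highest correlation (r = 0.776) and Grik1 and Grik4 the lowest (-0.501).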

How the data were processed

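RNA-seq libraries from P32 hippocampus of 11 mice were analysed. The authors deposited raw counts for each gene, made with STAR 2.7.2 on mm9 and featureCounts, with no normalization, per the study's methods. The libraries were stranded, and the strand setting of the counting is not given in the sources used here. Library names in the headers placed each column, since the labels name the 2 tables the other way round. Each table held 27 symbols turned into dates (0.300% to 0.372% of counts), which stayed in the fits of a round but not in those joining both tables.

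Counts were fitted with edgeR 4.0.16 in R 4.3.3, with the study's filter (genes reaching 1 CPM in 1 or more libraries), its term (genotype) and its comparisons (each mutant group against the WT mice of its round). TMM factors, the quasi-likelihood test and Benjamini-Hochberg adjustment at 0.05 were chosen here: the study's methods name a generalized linear model with tagwise dispersions but neither the scaling nor the test. The difference of effects and the slope per deleted allele used all 11 libraries. Standard errors were taken from the size of the log2 fold change over the root of its F statistic. The code was tested on simulated counts. Alternatives were the likelihood ratio test, DESeq2 1.42.0, other scaling factors and filters, sex as a covariate, 1 fit over all libraries and leaving out each library. Positions, lengths and sequences came from mm9 and its GENCODE annotation.

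The named genes were the 5 members and Scn1a, called genes of the partner and receptor lists with Neto1, Neto2, C1ql2, C1ql3 and Adarb1, the 2 genes most like each member, and the most abundant gene of a marker list. Lct, Prox1, Iyd, Fibcd1, Gad2, Cck and Rorb were named after their values were seen. The members and lists were chosen with earlier results of these data known.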

Additional observations from a re-analysis of the deposited data

Results flagged for a closer look

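For 4 genes the change in 1b-/- mice differed from the change in 1b+/- mice by edgeR's quasi-likelihood test of the difference itself, with log2 differences of -0.66 for Grik2 (adjusted p = 0.0127), -1.49 for Grik3 (0.0125), 1.89 for Grik4 (4.1e-04) and 0.60 for Grik5 (0.0171). The test called 27.3% of all genes, and the genotypes were sequenced in separate rounds, so genotype, round and the WT mice of each round cannot be told apart. The spread in this test was estimated over both rounds together. In the group of 4 1b+/- mice, no library lay far enough from the others to pass Dixon's test for any of the 5 genes. The nearest to it was Grik1 in the only female, with a gap of 0.803 of the range.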

How the results depend on the processing

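In the homozygous comparison, Grik2, Grik3 and Grik5 crossed the threshold with other tests at nearly the same size: Grik2 was -0.76 with the likelihood ratio test, -0.76 with DESeq2 and -0.77 with all 11 libraries in 1 fit, Grik3 was -1.40, -1.40 and -1.40, and Grik5 was 0.58 with DESeq2 and 0.57 with all 11 libraries. With sex as a covariate, which here equals leaving out the only male and so sets 1 1b-/- library against 2 WT libraries that alone give the spread, Grik3 was -2.16 and passed. The members called numbered 4 with DESeq2 (14.4% of all genes called), 4 with all 11 libraries (37.2%) and 3 with the likelihood ratio test (12.3%), against 1 (3.58%). The log2 difference of Grik4 in an exact permutation test was 2.04, where p cannot go below 0.333. Grik1, near 0 in this comparison, turned to 0.0012 without a filter and to 0.025 as a plain difference of log2 CPM, and Grik5 in 1b+/- mice turned to 0.013 with sex as a covariate. The slope of Grik3 passed at -0.47 with both the likelihood ratio test and DESeq2, which called 2258 and 2899 of all 14905 genes.

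DESeq2, which called 14.4% of all genes in 1b-/- mice, and the likelihood ratio test, which called 12.3%, each called 7 of 23 partner genes there, against 2. DESeq2 called 4 of the other glutamate receptor genes in 1b-/- mice, against 2. In 1b+/- mice it called 2 of them (Grin2a and Grin3a), against 0, where it called 245 of all 14630 genes.

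Leaving out each library in turn gave log2 fold changes in 1b-/- mice of -0.34 to 0.44 for Grik1, -0.98 to -0.50 for Grik2, -2.16 to -0.91 for Grik3 and 1.77 to 2.30 for Grik4. In 1b+/- mice it gave 0.092 to 0.23 for Grik4 and -0.077 to 0.013 for Grik5. The difference of effects ran from -0.23 to 0.55 for Grik1, -0.89 to -0.41 for Grik2, -2.26 to -0.99 for Grik3 and 0.45 to 0.75 for Grik5. The slope ran from -0.16 to 0.075 for Grik1, -0.35 to -0.20 for Grik2 and -0.60 to -0.24 for Grik3. It ran from 0.61 to 0.81 for Grik4 and 0.11 to 0.21 for Grik5. The direction of Grik2, Grik3 and Grik4 did not turn in any of these fits. No paired analysis was possible because the labels give no replicate numbers that groups share. The homozygous comparison had 2 mice a group, of unequal sex, and WT libraries that stood apart in region markers. The lowest count of a member in any library was 325, so counting error is small beside the spread of 22.9% between its mice.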
